A study of Rattus norvegicus with 6 samples.

Results

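Genes of the matrix metalloproteinase (Mmp), ADAM and ADAMTS families and of their tissue inhibitors (Timp) were followed in rat liver, sampled 14 days after the organ was injured and dressed to stop bleeding. Members were the protein-coding rows of the count table whose symbol begins with Mmp, Timp, Adam or Adamts followed by a number, which gave 58 of 20104 rows. They are 53 enzyme genes (17 Mmp, 19 Adam and 17 Adamts), 4 Timp genes and Mmp24os, an opposite-strand gene that shares the name of Mmp24 but is not an MMP and was left out of the counts below. In 3 libraries the dressing was AKOC, a name that the labels leave unexplained, in a series whose title speaks of kaolin scales fixed to cotton. In the other 3 it was Quik-clot, a commercial haemostatic dressing that served as the control. The labels give no strain, sex or age, and no uninjured liver was among these samples, so every library comes from an injured and dressed organ. Separate animals are not stated for the 3 libraries of a group, so p-values refer to the spread between libraries, and that spread may be technical.

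MMPs are secreted or membrane-anchored zinc proteases that cut collagens, gelatin, proteoglycans and other matrix proteins, and they are made as inactive precursors. ADAMs are mostly membrane-bound and release the outer parts of other membrane proteins, while ADAMTS enzymes are secreted and act on procollagens, proteoglycans and von Willebrand factor. TIMPs block the active site of these enzymes, and in liver the balance of enzymes and TIMPs is known for its part in the deposition and removal of scar matrix. The comparison asked how the dressing bears on the transcripts of these enzymes and inhibitors in repaired tissue.

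Total counts ran from 40402312 to 41455378 per library, and the 58 rows took between 0.0356% and 0.0456% of them, or 14366 to 18861 counts per library. Liver markers were abundant (the lowest Alb level was 62634 CPM; CPM is the count scaled to library size with edgeR's trimmed mean of M values, TMM). Quik-clot replicate 3 stood apart by the acute phase genes A2m and Lcn2. A2m, a plasma inhibitor of proteases, had 9.14, 86.7 and 91.5 CPM in the AKOC libraries, against 5.29, 31.95 and 2403 CPM in the Quik-clot libraries. Lcn2 had 13.6, 262 and 3.103 CPM in the AKOC libraries, against 10.2, 20.9 and 3167 CPM in the Quik-clot libraries. Both were highest in Quik-clot replicate 3, and members with their highest or lowest level there are also given without it. Not all acute phase genes followed. Crp and Itih4 were highest in AKOC replicate 2, at 8320 and 11201 CPM, against 7550 and 9329 CPM in Quik-clot replicate 3. The 13 acute phase genes listed summed to 96032 CPM in AKOC replicate 2 and 125511 CPM in Quik-clot replicate 3.

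Of the 57 genes, 39 had at least 10 counts in 3 libraries, and the same 39 passed the filter for testing. The 18 below that limit were Adam1b, Adam4, Adam4l1, Adam6, Adam7, Adam22, Adam28, Adam32, Adam33, Adamts8, Adamts16, Adamts17, Adamts19, Mmp3, Mmp7, Mmp11, Mmp27 and Timp4. None of them was at 0 in all 6 libraries. Adam22, with 8, 0 and 18 counts in the AKOC libraries and 16, 5 and 7 in the Quik-clot libraries, came closest to the limit. The matrilysin Mmp7 had 0 counts in each AKOC library and 1, 2 and 3 in the Quik-clot libraries, and Adamts16 had 0 in each AKOC library and 1, 1 and 3 in the Quik-clot libraries. A count of 0 allows up to 3 counts, equal to 0.0673 to 0.0801 CPM in the AKOC libraries, a floor that covers counting error only. The edgeR fit without a filter, the one edgeR fit that held both genes, gave adjusted p-values of 0.441 for Mmp7 and 0.4697 for Adamts16. Both genes were picked after their values were seen, so these values are no support for a difference. Mmp13, a collagenase of rodents, was on the list of genes to name but is not analysed here.

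Levels between genes were compared in FPKM, fragments scaled to transcript length and depth. Membrane-anchored and basement-membrane enzymes led the MMPs. Mmp14, the membrane-type enzyme that activates pro-Mmp2, had 19.01, 19.6 and 15.3 FPKM in the AKOC libraries, against 22.6, 15.9 and 24.8 FPKM in the Quik-clot libraries. Mmp19, which acts on basement-membrane proteins, had 20.1, 18.3 and 16.8 FPKM in the AKOC libraries, against 16.8, 17.8 and 16.2 FPKM in the Quik-clot libraries. Mmp14 and Mmp19 together made up between 77.9% and 82.6% of all Mmp FPKM in the 6 libraries. Mmp15, another membrane-type enzyme, followed with a mean of 4.35 FPKM over the 6 libraries, the gelatinase Mmp2 with 1.91, and the neutrophil collagenase Mmp8 with 1.35.

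Among the ADAMs, Adam9 averaged 10.9 FPKM over the 6 libraries, the Notch-cleaving sheddase Adam10 8.21 and the TNF-releasing enzyme Adam17 5.47. Adam23, a family member without a working active site that is best known from neurons, was as abundant, at 5.89 FPKM. Of the ADAMTS genes, Adamts1, which cuts versican and aggrecan, led with 6.27 FPKM. Adamts13, which cuts von Willebrand factor and is made by hepatic stellate cells, had 1.86 FPKM. Timp2, Timp3 and Timp1 had 7.22, 6.05 and 3.33 FPKM. Only Mmp14, Mmp19 and Adam9 averaged 10 FPKM or more, 17 genes averaged 1 or more, and 35 averaged 0.1 or more.

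**Figure D1:**
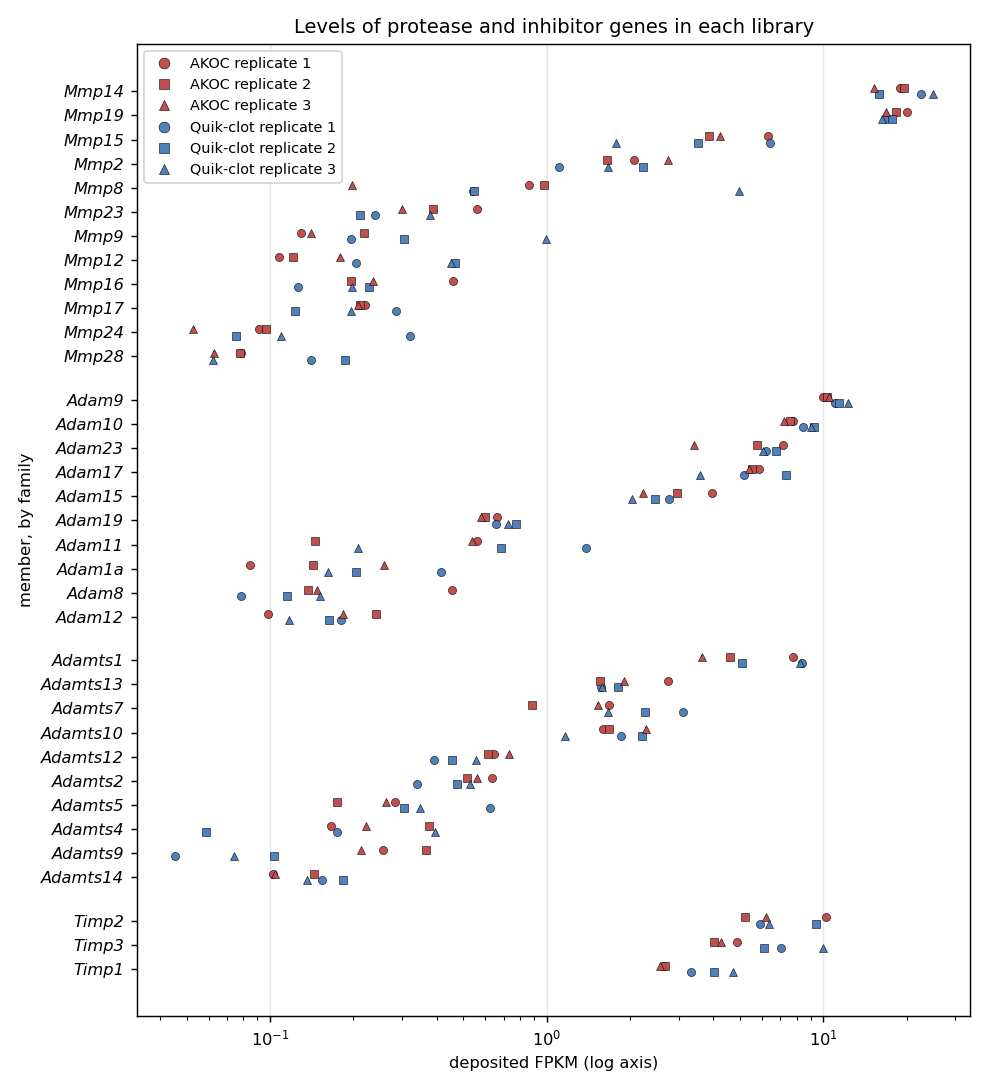
Deposited FPKM on a log axis for the 35 genes with a mean of at least 0.1 FPKM, 1 row per gene and grouped by family; red symbols are AKOC libraries and blue symbols Quik-clot libraries, with the replicate shown by the shape. Mmp14 and Mmp19 lie between 15.3 and 24.8 FPKM in every library, and Mmp8 in Quik-clot replicate 3 lies far to the right of its other 5 values.

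Adamts9 was higher in all 3 AKOC libraries than in any Quik-clot library, and Timp1 and Timp3 were lower in all 3, but no difference passed the adjusted threshold. The dressings were compared with the quasi-likelihood F test of edgeR on the counts, two-sided, fitted over 13872 genes with Benjamini-Hochberg adjustment over all of them. No enzyme or inhibitor passed an adjusted p of 0.05, nor did any other gene, so the share of all genes called was 0%. The lowest adjusted p of a member was 0.279. At an unadjusted p under 0.05 there were 4 of 36 enzymes, with Adamts9 and Adamts12 higher and Adamts7 and Mmp12 lower after AKOC, and 1 of 3 inhibitors, Timp3, lower. That rule takes 12.5% of all genes tested (6.78% higher, 5.69% lower), and the enzymes' share of 11.1% is near it. Mmp12 met the count filter through the Quik-clot libraries, where it is high, and AKOC replicate 3. Its place in this count and in the FPKM count below is no support. Levels of the dressings did not overlap in 4 of 36 enzymes (Adamts9 higher, and Adamts5, Adamts6 and Adamts7 lower) and in 2 of 3 inhibitors (Timp1 and Timp3, both lower), against 18.4% of all genes tested (9.53% higher, 8.84% lower). Adamts6 met the count filter through the Quik-clot libraries, where it is high, and AKOC replicate 1, so its place in this count is no support. On the deposited FPKM, which are scaled by library totals, 6 enzymes did not overlap (Adamts9 and Adamts12 higher, and Adam9, Adam10, Adamts5 and Mmp12 lower), and the same 2 inhibitors. The share of all genes without overlap was not computed on the FPKM scale, so the FPKM counts have no background to be read against. An exact two-sided permutation test of 3 libraries against 3 cannot give a p below 0.1, so these counts are a description.

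Log2 fold changes, AKOC over Quik-clot, were positive in 16 enzymes and negative in 20, where 48.0% of all genes tested were positive. Their median was -0.13, and the median of all genes tested was -0.01. Those of the 3 tested Timp genes were -0.56 ± 0.25 for Timp1, 0.05 ± 0.24 for Timp2 and -0.77 ± 0.24 for Timp3. The enzymes ran from -1.63 (Mmp8) to 1.98 (Adamts9).

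**Figure D2:**
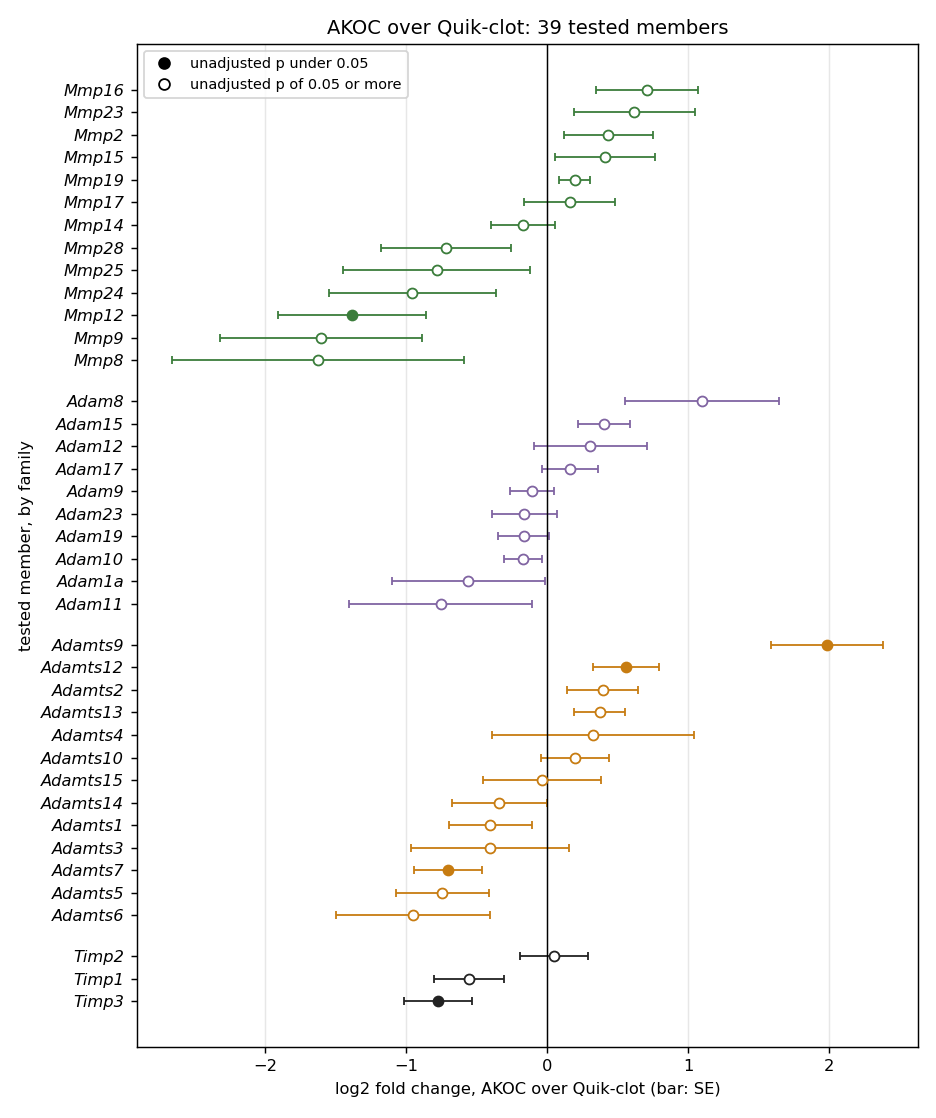
Log2 fold change of AKOC over Quik-clot for the 39 tested genes, ordered within each family; bars are standard errors and filled symbols mark an unadjusted p under 0.05. Adamts9 lies at 1.98, the MMPs spread from -1.63 to 0.71, and 2 of the 3 Timp genes lie left of 0.

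Upstream sequence is shown for Adamts9, the enzyme with the largest difference, for Mmp12, the MMP with an unadjusted p under 0.05, and for Timp3 and Timp1, the inhibitors whose dressings did not overlap. RefSeq sequence of the GRCr8 assembly covered 38 of the 58 members, and the authors' build is another one, so positions apply to GRCr8 only. Each line gives the 250 bases before the annotated start, 5′ to 3′ in the direction of the gene. Capitals mark matches to 4 motifs sought on both strands: TGANTCA for AP-1, CACGTG for the E-box, GGGCGG for the GC box and TATAAA for the TATA box.
Adamts9, chr4:127019877-127020126, minus strand: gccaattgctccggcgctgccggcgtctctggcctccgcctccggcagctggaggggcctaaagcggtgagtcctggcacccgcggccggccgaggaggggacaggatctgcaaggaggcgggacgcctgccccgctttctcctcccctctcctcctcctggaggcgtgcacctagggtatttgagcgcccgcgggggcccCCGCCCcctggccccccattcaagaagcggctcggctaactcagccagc
Mmp12, chr8:12866402-12866651, plus strand: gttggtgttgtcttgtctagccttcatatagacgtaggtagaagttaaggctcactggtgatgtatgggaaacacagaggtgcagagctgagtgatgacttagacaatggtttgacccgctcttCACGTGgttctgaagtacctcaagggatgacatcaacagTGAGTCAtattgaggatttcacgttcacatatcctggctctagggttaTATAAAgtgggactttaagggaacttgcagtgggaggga
Timp3, chr7:19459559-19459808, minus strand: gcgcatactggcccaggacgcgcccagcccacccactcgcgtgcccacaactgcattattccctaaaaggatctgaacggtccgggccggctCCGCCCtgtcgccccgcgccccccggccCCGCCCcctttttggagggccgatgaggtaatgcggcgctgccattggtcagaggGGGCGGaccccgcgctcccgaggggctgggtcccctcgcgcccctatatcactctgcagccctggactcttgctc
Timp1, chrX:3771123-3771372, minus strand: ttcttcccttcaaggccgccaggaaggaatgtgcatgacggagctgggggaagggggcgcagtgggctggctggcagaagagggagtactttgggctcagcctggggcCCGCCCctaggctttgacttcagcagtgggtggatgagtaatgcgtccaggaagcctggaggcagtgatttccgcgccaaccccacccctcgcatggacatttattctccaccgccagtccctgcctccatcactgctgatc

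The 4 windows differed in make-up. Adamts9 held 71.6% G and C, Timp3 69.6%, Timp1 61.2% and Mmp12 45.6%, against a median of 52% over 27457 promoters. Mmp12 had an AP-1 match 87 bases, an E-box match 126 bases and a TATA box match 39 bases before the start. Timp3 had 3 GC box matches, and Adamts9 and Timp1 had 1 each, with no match to the other 3 motifs. No matches overlapped one another. AP-1 motifs occurred in 6.36% of all promoters and in 4 of the 38 members, E-box motifs in 5.79% and in 3, TATA motifs in 13.1% and in 8, and GC boxes in 32.4% and in 22. A match describes the letters of the window and says nothing of binding in these samples.

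Adamts9 (NCBI Gene 312566), a secreted protease of versican and aggrecan, showed the largest difference of the enzymes. It had 2.81, 4.81 and 2.66 CPM in the AKOC libraries, against 0.479, 1.15 and 0.973 CPM in the Quik-clot libraries. Every AKOC library lay above every Quik-clot library, on counts of 102 to 180 after AKOC and 22 to 50 after Quik-clot. Means were 3.42 ± 1.199 CPM in AKOC libraries, against 0.866 ± 0.346 CPM in Quik-clot libraries (SD, n = 3 each, as for all means here), a log2 fold change of 1.98 ± 0.40 (SE; adjusted p = 0.279) in edgeR. DESeq2, an alternative test, called it (adjusted p = 0.000693), while 2.02% of all genes were called by that test. Over all 16 alternatives the adjusted p ran from 0.000693 to 0.589, and DESeq2 was the single one that called it. Leaving out a library gave log2 fold changes between 1.66 (AKOC replicate 2 out) and 2.25 (Quik-clot replicate 2 out). On the log2 scale of FPKM plus a pseudocount, which understates low genes, it was 0.25 with a pseudocount of 1 and 1.11 with 0.1.

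Other ADAMTS genes with products that cut proteoglycans, namely Adamts1, Adamts4, Adamts5 and Adamts15, had fold changes of smaller size. Adamts1 had 31.5, 22.2 and 16.7 CPM in the AKOC libraries, against 32.6, 20.7 and 39.9 CPM in the Quik-clot libraries, overlapping between dressings (log2 fold change -0.40 ± 0.30, SE; adjusted p = 0.5901). Leaving out AKOC replicate 1 gave -0.68, and leaving out Quik-clot replicate 3 gave -0.18. Adamts5, an aggrecanase and the next coding gene to Adamts1 on chromosome 11 of the GRCr8 assembly, had 1.01, 0.748 and 1.07 CPM in the AKOC libraries, against 2.15, 1.100 and 1.49 CPM in the Quik-clot libraries. All 3 AKOC values lay below the Quik-clot values, the nearest pair being 1.07 and 1.10 CPM (log2 fold change -0.74 ± 0.33, SE; adjusted p = 0.407). Adamts4, also an aggrecanase, had 0.516, 1.39 and 0.782 CPM in the AKOC libraries, against 0.522, 0.183 and 1.46 CPM in the Quik-clot libraries (log2 fold change 0.32 ± 0.72, SE; adjusted p = 0.869), and its sign turned without AKOC replicate 2 or without Quik-clot replicate 2, while it was 1.31 without Quik-clot replicate 3. Adamts15 was at 0.4299 ± 0.106 CPM in AKOC libraries, against 0.438 ± 0.115 CPM in Quik-clot libraries. Of the ADAMTS genes with other or less known substrates, Adamts10 was at 8.203 ± 1.97 CPM in AKOC libraries, against 7.16 ± 1.67 CPM in Quik-clot libraries. Its log2 fold change of 0.20 ± 0.24 (SE) was 0.0391 without Quik-clot replicate 3, its lowest library. Adamts6, the least abundant of the non-overlapping genes, had 0.539, 0.133 and 0.209 CPM in the AKOC libraries, against 0.653, 0.5501 and 0.5404 CPM in the Quik-clot libraries (log2 fold change -0.95 ± 0.54, SE, adjusted p = 0.499). These are 24, 5 and 8 counts against 30, 24 and 20, so its count filter was met through the Quik-clot libraries and AKOC replicate 1.

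Adamts7 and Adamts12, a closely related pair that both cut cartilage oligomeric matrix protein, lay on opposite sides. Adamts12 (NCBI Gene 294809) had 6.26, 7.102 and 8.06 CPM in the AKOC libraries, against 3.68, 4.45 and 6.46 CPM in the Quik-clot libraries. Its dressings met at AKOC replicate 1 and Quik-clot replicate 3 (log2 fold change 0.56 ± 0.24, SE; adjusted p = 0.398). Adamts7 (NCBI Gene 315879) had 9.65, 6.06 and 10.01 CPM in the AKOC libraries, against 17.3, 13.2 and 11.4 CPM in the Quik-clot libraries. No AKOC library reached the lowest Quik-clot library (log2 fold change -0.70 ± 0.24, SE; adjusted p = 0.3495). The difference between the 2 genes' fold changes was not tested.

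The procollagen N-proteinases, which trim the amino end of fibrillar procollagens, overlapped between dressings. Adamts2 had 4.45, 4.298 and 4.43 CPM in the AKOC libraries, against 2.29, 3.35 and 4.404 CPM in the Quik-clot libraries, nearly equal in the AKOC libraries and reaching the same level in Quik-clot replicate 3 (log2 fold change 0.39 ± 0.25, SE; adjusted p = 0.538). Adamts3 was at 0.225 ± 0.121 CPM in AKOC libraries, against 0.299 ± 0.0481 CPM in Quik-clot libraries. Adamts14 was at 0.632 ± 0.174 CPM in AKOC libraries, against 0.799 ± 0.0888 CPM in Quik-clot libraries. Adamts13 had 12.95, 8.78 and 10.2 CPM in the AKOC libraries, against 7.14, 8.64 and 8.92 CPM in the Quik-clot libraries, with AKOC replicate 1 highest and AKOC replicate 2 within the Quik-clot range (log2 fold change 0.37 ± 0.18, SE; adjusted p = 0.4402). Vwf, the gene of its substrate, had a log2 fold change of 0.17 ± 0.23 (SE; adjusted p = 0.778).

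Of the inhibitors, Timp3 and Timp1 were lower after AKOC in every library, without passing the adjusted threshold, and Timp2 was not. Timp3 (NCBI Gene 25358), which binds to the matrix and also blocks Adam17 and several ADAMTS enzymes, had 20.4, 20.1 and 20.3 CPM in the AKOC libraries, against 28.3, 25.8 and 49.8 CPM in the Quik-clot libraries. The 3 AKOC values were nearly equal, all lay below the Quik-clot values, and Quik-clot replicate 3 stood apart from its group. Means were 20.3 ± 0.117 CPM in AKOC libraries, against 34.6 ± 13.2 CPM in Quik-clot libraries, with a log2 fold change of -0.77 ± 0.24 (SE; adjusted p = 0.326). Without Quik-clot replicate 3, its highest library, the log2 fold change was -0.42 (adjusted p = 0.4797), within adjusted p-values of 0.112 to 0.649 over all alternatives.

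Timp1 (NCBI Gene 116510), an inducible and soluble inhibitor that stellate cells and hepatocytes make during injury, had 2.29, 2.75 and 2.503 CPM in the AKOC libraries, against 2.76, 3.48 and 4.86 CPM in the Quik-clot libraries. The highest AKOC value and the lowest Quik-clot value were 2.75 and 2.76 CPM, so the groups barely parted (log2 fold change -0.56 ± 0.25, SE; adjusted p = 0.407). Without Quik-clot replicate 3 it was -0.31 (adjusted p = 0.653, within 0.347 to 0.682 over all alternatives). Timp1 and Timp3 were both highest in the library with the highest A2m and Lcn2. The summed level of the 13 acute phase genes on the list was 50264 to 96032 CPM in AKOC libraries, against 42510.1 to 125511 CPM in Quik-clot libraries, with none at 0 in all libraries. Of these genes 11 of 13 were negative with all libraries, but 11 of 13 were positive without Quik-clot replicate 3. The part of these genes in the Timp values was not tested.

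Timp2, which inhibits most MMPs and also bridges pro-Mmp2 to Mmp14 for activation, had 34.4, 20.98 and 23.7 CPM in the AKOC libraries, against 19.2, 31.8 and 25.6 CPM in the Quik-clot libraries. The dressings overlapped throughout (log2 fold change 0.05 ± 0.24, SE; adjusted p = 0.946), and with library totals only the sign turned to negative (-0.0013). Timp4 was below the limit for testing, with 6, 8 and 0 counts in the AKOC libraries and 7, 2 and 6 in the Quik-clot libraries. Timp1, Timp3 and Timp4 each overlap a synapsin gene (Syn1, Syn3 and Syn2) in the reference annotation, and without a stated strand setting reads of overlapping genes cannot be told apart.

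**Figure D3:**
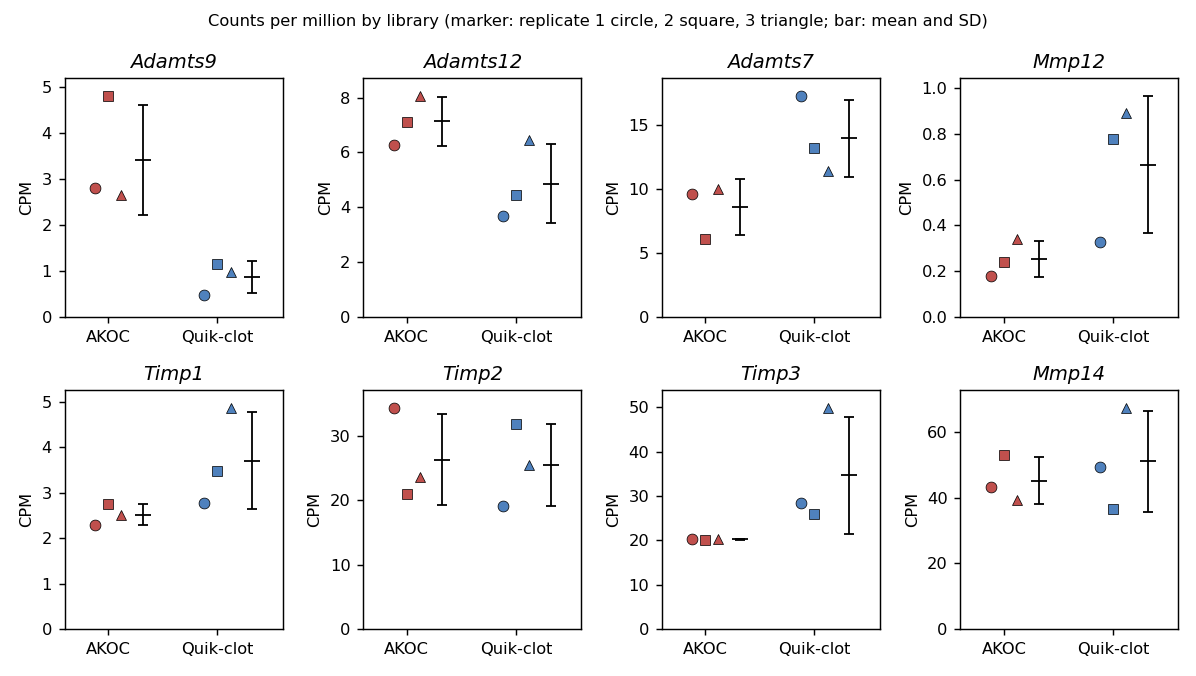
CPM in each library for 8 genes, with AKOC (red) left of Quik-clot (blue); circles, squares and triangles are replicates 1, 2 and 3, and the bar beside them is the mean with its SD. Adamts9 is higher and Timp3 lower in all 3 AKOC libraries, while Timp2 and Mmp14 overlap between dressings.

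Summed over each family, both the MMPs and the inhibitors overlapped between dressings. Mmp FPKM summed to 50.2, 45.97 and 40.6 in the AKOC libraries and to 49.2, 41.8 and 52.2 in the Quik-clot libraries. Timp FPKM summed to 17.8, 12.1 and 13.03 in the AKOC libraries and to 16.4, 19.6 and 21.1 in the Quik-clot libraries. AKOC replicate 1 lay above Quik-clot replicate 1 in both sums. The ratio of Mmp to Timp FPKM was 2.82, 3.81 and 3.12 in the AKOC libraries and 3.003, 2.14 and 2.47 in the Quik-clot libraries, 3.25 ± 0.511 after AKOC and 2.54 ± 0.437 after Quik-clot (mean ± SD, n = 3 each). AKOC replicate 1 lay below Quik-clot replicate 1 in that ratio, so the groups overlapped here as well. Within the inhibitors, Timp3 made up 27.3%, 33.5% and 32.7% of Timp FPKM in the AKOC libraries and 42.9%, 31.3% and 47.1% in the Quik-clot libraries, overlapping through Quik-clot replicate 2. Adam FPKM summed to 33.6 ± 3.07 after AKOC and 36.8 ± 2.31 after Quik-clot (mean ± SD, n = 3 each), and Adamts FPKM to 12.9 ± 2.78 after AKOC and 14.96 ± 1.87 after Quik-clot (mean ± SD, n = 3 each).

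**Figure D4:**
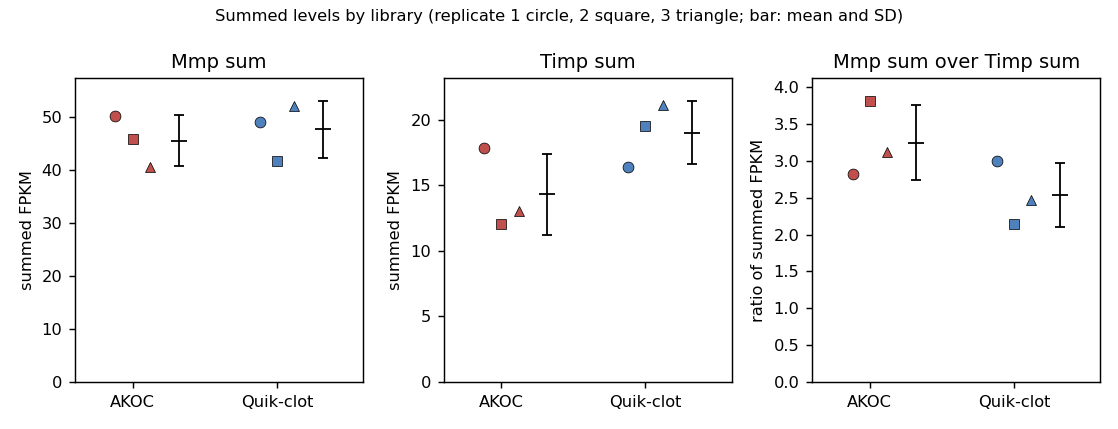
Summed FPKM of the 17 Mmp genes and of the 4 Timp genes, and the ratio of these sums, in each library; AKOC is red and Quik-clot blue, and the bar is the mean with its SD. The ratio runs from 2.82 to 3.81 in the AKOC libraries and from 2.14 to 3.003 in the Quik-clot libraries.

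Of the MMPs with secreted products, Mmp12 and the neutrophil enzymes Mmp8 and Mmp9 had the lowest fold changes. Mmp12 (NCBI Gene 117033), the elastase of macrophages, had 0.1796, 0.2403 and 0.339 CPM in the AKOC libraries, against 0.326, 0.779 and 0.892 CPM in the Quik-clot libraries. These are 8, 9 and 13 counts against 15, 34 and 33, and Quik-clot replicate 1 lay within the AKOC range (log2 fold change -1.39 ± 0.52, SE; adjusted p = 0.3704). Without Quik-clot replicate 3 it was -1.12, and it was then no longer under an unadjusted p of 0.05. Its count filter was met through the Quik-clot libraries and 1 AKOC library. Of the macrophage and Kupffer cell markers, 11 of 11 listed genes were negative, 4 at an unadjusted p under 0.05 (2 to 5 when a library was left out). At that p 5.69% of all genes tested were lower, and at any p 48.0% were positive. Without AKOC replicate 3 or without Quik-clot replicate 2, 9 of these 11 markers were negative. The macrophage and Kupffer cell markers summed to 877 to 1239.9 CPM in AKOC libraries, against 1117 to 1609.5 CPM in Quik-clot libraries. The 7 genes of lipid-associated macrophages, with 5 negative and 1 positive among the 6 tested, summed to 71.5 to 81.5 CPM in AKOC libraries, against 66.99 to 87.8 CPM in Quik-clot libraries, and Spp1, Gpnmb and Fabp5 in it had log2 fold changes of -1.34 ± 0.34, -1.13 ± 0.41 and 2.11 ± 0.62. Fabp5, a fatty acid binding protein, was thus higher after AKOC (15.2, 41.01 and 48.5 CPM in the AKOC libraries, against 3.199, 6.26 and 14.8 CPM in the Quik-clot libraries). Trem2 was at 0 in AKOC replicate 1 and Quik-clot replicate 1. The part of these cells in the Mmp12 values was not tested, and in bulk tissue fewer cells of a type and less RNA per cell cannot be told apart.

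Mmp8, the neutrophil collagenase, had 1.91, 2.59 and 0.495 CPM in the AKOC libraries, against 1.15, 1.21 and 13.1 CPM in the Quik-clot libraries. Quik-clot replicate 3 stood far above every other library. The log2 fold change of -1.63 ± 1.03 (SE; adjusted p = 0.536) turned to 0.49 (adjusted p = 0.804, within 0.342 to 0.902 over all alternatives) without that library. Mmp9, the gelatinase of neutrophils and macrophages, had 0.359, 0.721 and 0.443 CPM in the AKOC libraries, against 0.522, 0.848 and 3.296 CPM in the Quik-clot libraries. It was again highest in Quik-clot replicate 3, and its log2 fold change of -1.60 ± 0.72 (SE; adjusted p = 0.407) was -0.44 (adjusted p = 0.771, within 0.264 to 0.771 over all alternatives) without it. Mmp25, a membrane-type enzyme of leukocytes, was also highest in that library, at 0.1796, 0.347 and 0.261 CPM in the AKOC libraries, against 0.152, 0.413 and 0.811 CPM in the Quik-clot libraries. Its log2 fold change of -0.79 ± 0.66 (SE; adjusted p = 0.639) was -0.11 without it.

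Neutrophil genes stood high in the same library. S100a8 had 12.3, 8.36 and 3.49 CPM in the AKOC libraries, against 2.18, 5.25 and 43.01 CPM in the Quik-clot libraries, and S100a9 had 25.6, 17.99 and 6.73 CPM in the AKOC libraries, against 3.29, 10.2 and 55.9 CPM in the Quik-clot libraries. The 9 genes of the list that are in the table summed to 12.05 to 46.8 CPM in AKOC libraries, against 7.86 to 106 CPM in Quik-clot libraries, with 2 positive and 2 negative among the 4 tested (4 positive without Quik-clot replicate 3), and the granule gene Mpo was at 0 in AKOC replicates 1 and 3 and in Quik-clot replicate 2. AKOC replicate 1 had the highest Csf3r (6.78, 2.94 and 1.15 CPM in the AKOC libraries, against 1.31, 2.11 and 4.13 CPM in the Quik-clot libraries) without a high Mmp9. Their part in the Mmp8 and Mmp9 values was not tested.

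**Figure D5:**
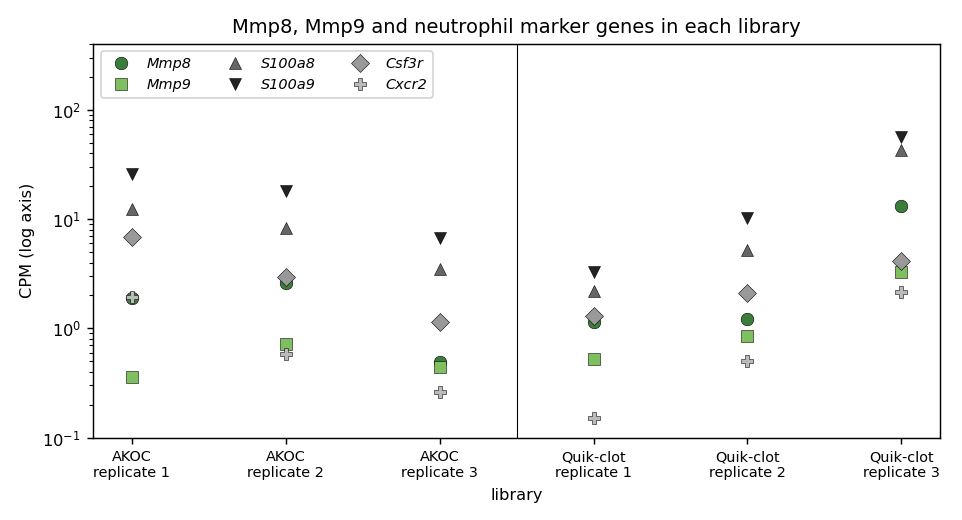
CPM on a log axis of Mmp8, Mmp9 and 4 neutrophil marker genes in each library, with the AKOC libraries left of the line. Mmp8, Mmp9, S100a8 and S100a9 are all highest in Quik-clot replicate 3, at 13.1, 3.296, 43.01 and 55.9 CPM.

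The abundant MMPs overlapped between dressings. Mmp14 had 43.2, 53.2 and 39.4 CPM in the AKOC libraries, against 49.4, 36.4 and 67.4 CPM in the Quik-clot libraries, overlapping, with a log2 fold change of -0.17 ± 0.23 (SE; adjusted p = 0.769) that turned to 0.08 without Quik-clot replicate 3. Mmp19 had 49.1, 53.3 and 46.6 CPM in the AKOC libraries, against 39.3, 43.7 and 47.3 CPM in the Quik-clot libraries, with Quik-clot replicate 3 inside the AKOC range (log2 fold change 0.19 ± 0.11, SE; adjusted p = 0.503). Mmp2, the gelatinase that stellate cells make, had 5.86, 5.55 and 8.79 CPM in the AKOC libraries, against 3.003, 6.35 and 5.62 CPM in the Quik-clot libraries, and Quik-clot replicate 1 was the lowest (log2 fold change 0.43 ± 0.31, SE; adjusted p = 0.587). Mmp15 ranged from 7.57 to 22.3 CPM over both dressings, with a log2 fold change of 0.41 ± 0.35 (SE; adjusted p = 0.6496). It was 0.11 without Quik-clot replicate 3, its lowest library, and 0.88 without Quik-clot replicate 1.

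Among the less abundant membrane-type enzymes, Mmp16 had 5.03, 2.56 and 2.92 CPM in the AKOC libraries, against 1.33, 2.52 and 2.59 CPM in the Quik-clot libraries. AKOC replicate 1 stood above the rest, while AKOC replicates 2 and 3 were near Quik-clot replicates 2 and 3 (log2 fold change 0.71 ± 0.36, SE; adjusted p = 0.4498). Mmp24 averaged 0.349 ± 0.1099 CPM in AKOC libraries, against 0.677 ± 0.482 CPM in Quik-clot libraries, and Quik-clot replicate 1 was the highest library (log2 fold change -0.96 ± 0.59, SE; adjusted p = 0.529; -0.20 without it). Its neighbour on the opposite strand, Mmp24os, overlaps it in the reference annotation and had a log2 fold change of -0.06 ± 0.16 (SE; adjusted p = 0.897). Mmp17 was at 1.83 ± 0.121 CPM in AKOC libraries, against 1.64 ± 0.604 CPM in Quik-clot libraries. Mmp23, an enzyme with an unusual domain order, averaged 0.731 ± 0.176 CPM in AKOC libraries, against 0.481 ± 0.216 CPM in Quik-clot libraries (log2 fold change 0.62 ± 0.43, SE; adjusted p = 0.5704). Mmp28 averaged 0.325 ± 0.0444 CPM in AKOC libraries, against 0.533 ± 0.2298 CPM in Quik-clot libraries.

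None of the 10 tested ADAM genes had an unadjusted p under 0.05, and in none did the dressings part on the TMM scale. Adam17 had 22.4, 25.1 and 23.2 CPM in the AKOC libraries, against 18.9, 28.1 and 16.3 CPM in the Quik-clot libraries, with the highest and the lowest value both after Quik-clot (log2 fold change 0.16 ± 0.20, SE; adjusted p = 0.758). It was 0.42 without Quik-clot replicate 2, then under an unadjusted p of 0.05, and 0.00857 without Quik-clot replicate 3. Adam10 had 27.2, 31.8 and 28.8 CPM in the AKOC libraries, against 28.5, 32.6 and 37.9 CPM in the Quik-clot libraries (log2 fold change -0.17 ± 0.13, SE; adjusted p = 0.614), with -0.0607 without Quik-clot replicate 3. Adam9 had 36.8, 45.5 and 43.8 CPM in the AKOC libraries, against 39.1, 42.5 and 54.4 CPM in the Quik-clot libraries, with a log2 fold change of -0.11 ± 0.15 (SE; adjusted p = 0.792) and a change of sign to 0.05 without Quik-clot replicate 3. Adam15, found in endothelium and epithelium, had 12.2, 10.9 and 7.797 CPM in the AKOC libraries, against 8.23, 7.66 and 7.48 CPM in the Quik-clot libraries (log2 fold change 0.40 ± 0.19, SE; adjusted p = 0.4200). Without Quik-clot replicate 3, its lowest library, it was 0.38. Adam23 was lowest in AKOC replicate 3, at 23.1 CPM, against 35.5 to 43.04 CPM elsewhere, and its log2 fold change of -0.16 ± 0.23 was 0.0718 without that library and -0.0962 without Quik-clot replicate 3.

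Adam8, a leukocyte enzyme, had 1.71, 0.614 and 0.626 CPM in the AKOC libraries, against 0.283, 0.436 and 0.675 CPM in the Quik-clot libraries. AKOC replicate 1 alone stood out (log2 fold change 1.10 ± 0.55, SE; adjusted p = 0.443), and without that library the value was 0.43 (adjusted p = 0.769, within 0.441 to 0.769 over all alternatives). Adam8 was highest in the library with the highest Csf3r. The neutrophil genes S100a8, S100a9 and Cxcr2 were instead highest in Quik-clot replicate 3, where Adam8 had 0.675 CPM. The part of neutrophils in the Adam8 values was not tested. Adam12, known from activated stellate cells, had 0.741, 2.16 and 1.56 CPM in the AKOC libraries, against 1.31, 1.24 and 1.05 CPM in the Quik-clot libraries, and its log2 fold change of 0.31 ± 0.40 (SE; adjusted p = 0.768) turned negative without AKOC replicate 2 (-0.07). Adam11, a catalytically inactive member known from the brain, spread from 0.854 to 6.53 CPM (log2 fold change -0.76 ± 0.65, SE; adjusted p = 0.643), and without Quik-clot replicate 1 it was -0.0712. Adam19 was at 4.14 ± 0.187 CPM in AKOC libraries, against 4.65 ± 0.733 CPM in Quik-clot libraries, with a log2 fold change of -0.17 ± 0.18 (-0.0616 without Quik-clot replicate 3). Adam1a was at 0.487 ± 0.2804 CPM in AKOC libraries, against 0.7099 ± 0.309 CPM in Quik-clot libraries.

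Of the 39 tested genes, 13 were highest in Quik-clot replicate 3 (33.3%, where 20.0% of all genes tested were highest there). They include Timp1, Timp3, Mmp8, Mmp9, Mmp12, Mmp14, Adamts1, Adam9 and Adam10. Quik-clot replicate 1 was highest for 9 genes, among them Adamts5, Adamts6, Adamts7, Adam11 and Mmp24, and lowest for 11, among them Adamts9, Adamts12, Mmp2, Mmp16, Mmp19 and Timp2. AKOC replicate 1 was highest for 8 genes, and each of the other libraries for 3. The coefficient of variation within a dressing had a median of 25.5% after AKOC and 31.2% after Quik-clot, and was smaller after AKOC in 25 of 39 genes, where 60.4% of all genes tested were less variable after AKOC.

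Other genes of matrix turnover came from lists, and none of them passed an adjusted p of 0.05. The values with ± given for these genes are log2 fold changes, AKOC over Quik-clot, with their SE. List counts stand beside the shares of all genes tested: 48.0% were positive, and 6.78% were higher and 5.69% lower at an unadjusted p under 0.05. Of 9 tested genes of the plasminogen system, a serine protease cascade that can activate pro-MMPs, 0 had an unadjusted p under 0.05, with Serpine2 at 0.67 ± 0.29 and the activator Plat at 0.87 ± 0.43. Of 9 other inhibitors and clearance genes, the membrane-anchored MMP inhibitor Reck was the single one under 0.05. Reck had 5.41, 3.18 and 3.55 CPM in the AKOC libraries, against 2.24, 2.38 and 2.49 CPM in the Quik-clot libraries. Its dressings did not overlap, and all AKOC values were the higher ones (log2 fold change 0.77 ± 0.24, SE; adjusted p = 0.326). A2m had -3.70 ± 1.99, which rested on Quik-clot replicate 3 and turned to 1.75 without it.

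Of 11 tested genes for the activation and transport of ADAMs and MMPs, 9 were negative and 1 was under an unadjusted p of 0.05 (8 and 2 without Quik-clot replicate 3). That gene was Tspan14, a tetraspanin partner of Adam10, at 0.54 ± 0.21 (SE; adjusted p = 0.385). The proprotein convertase Furin, which activates many of the enzymes, had -0.30 ± 0.15, and Rhbdf1, a partner of Adam17, -0.30 ± 0.17. Of 18 tested genes whose products are shed by Adam10 or Adam17, 14 were negative, with 5 lower and 1 higher at an unadjusted p under 0.05. Without Quik-clot replicate 3, 13 were negative, with 2 lower and 0 higher at that p. Whichever library was left out, 2 to 6 were lower and 0 or 1 higher at that p. The smallest p-values belonged to Mertk (-0.54 ± 0.15), Vcam1 (-0.62 ± 0.19), Sdc1 (-0.47 ± 0.15) and Notch2 (0.34 ± 0.12).

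Among 16 tested matrix substrates, 10 were positive, with 5 higher and 0 lower at an unadjusted p under 0.05. When a library was left out, 3 to 6 were higher and 0 or 1 lower at that p. The higher genes were led by the basement-membrane gene Nid1 (0.59 ± 0.16) and the small proteoglycans Lum (1.90 ± 0.57) and Bgn (0.72 ± 0.24). Among the 6 negative genes were the small proteoglycan Dcn (-0.99 ± 0.48) and the fibrillar collagen gene Col1a1 (-1.04 ± 0.69). Dcn had 16.8, 14.1 and 20.4 CPM in the AKOC libraries, against 16.5, 22.2 and 63.4 CPM in the Quik-clot libraries, highest in Quik-clot replicate 3. Collagen processing genes were split, 5 positive and 6 negative of 11 tested, with the collagen chaperone Serpinh1 (0.61 ± 0.16) higher and the prolyl hydroxylase P4ha1 (-0.40 ± 0.16) lower. Of the relatives outside the rule, Adamdec1 had 3.19, 4.41 and 3.68 CPM in the AKOC libraries, against 1.04, 2.52 and 0.892 CPM in the Quik-clot libraries, without overlap (log2 fold change 1.33 ± 0.41, SE; adjusted p = 0.322). Adamtsl3, an ADAMTS-like protein without a protease domain, had 1.23 ± 0.39 (SE; adjusted p = 0.325), and 5 of 6 tested ADAMTS-like genes were positive.

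Markers of matrix-producing and vascular cells gave the setting of these values. Their counts stand beside the shares of all genes tested: 48.0% were positive, and 6.78% were higher and 5.69% lower at an unadjusted p under 0.05. Stellate cell and myofibroblast genes (13 tested, 6 positive and 7 negative, 1 higher and 1 lower at an unadjusted p under 0.05) summed to 266 to 325 CPM in AKOC libraries, against 139.6 to 288 CPM in Quik-clot libraries. Sinusoidal endothelial genes (8 tested, 7 negative, 2 lower at that p, 0 to 2 when a library was left out) summed to 515 to 587 CPM in AKOC libraries, against 572 to 678 CPM in Quik-clot libraries. T and NK cell genes (8 tested, all negative, 4 lower at that p, with a median log2 fold change of -1.03) summed to 11.5 to 14.6 CPM in AKOC libraries, against 14.9 to 45.7 CPM in Quik-clot libraries. Quik-clot replicate 2 held the highest sum, and without it 6 of 8 were negative and 1 was lower at that p. Mesothelial genes were near 0, with sums of 0.313 to 0.988 CPM in AKOC libraries, against 0.367 to 0.594 CPM in Quik-clot libraries, and Lrrn4 was at 0 in all AKOC libraries. Circadian clock genes were also measured (11 tested, 3 higher and 7 lower at an unadjusted p under 0.05), with a sum of 196 to 214 CPM in AKOC libraries, against 277 to 317 CPM in Quik-clot libraries, and the samples' hour of collection is not given in the labels. The part of these genes in the values of Adamts9, Timp3 and the other members was not tested.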

How the data were processed

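RNA-seq libraries were made from total RNA of rat liver, 3 after AKOC and 3 after Quik-clot, grouped by the sample titles. The authors deposited whole-number read counts per gene, without normalization, and a table of FPKM for the same genes and libraries. The submitters' processing notes name fastp, HISAT2, HTSeq and the build mRatBN7.2. Of their versions, the annotation, the strand setting and the FPKM formula, none is given in the sources used. With 1 length per gene, estimated from both tables, and the library totals, the counts gave back the deposited FPKM of all libraries with a largest relative error of 8.58e-07.

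Counts were filtered with filterByExpr (minimum count 10, minimum total 15), scaled by TMM (factors 0.902 to 1.12) and tested in R 4.3.3 with edgeR 4.0.16 (quasi-likelihood F test), with the dressing as the single term. The biological coefficient of variation was 27.2%. Standard errors were taken as the absolute log2 fold change divided by the root of F. The p-values were adjusted over all genes tested. Alternatives were DESeq2 1.42.0, limma 3.58.1 (voom with sample weights; trend on log2 of deposited FPKM with pseudocounts of 1 and 0.1), the legacy method, other scalings and filters, the replicate block and leaving out each library. No pair of replicates agreed within sampling noise. List counts without 1 library were added after the values were seen. Sums over members are descriptions without a test.

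Members and lists were chosen with earlier results of these data known. Named genes were a fixed panel of 24, members with an unadjusted p under 0.05, the 5 largest fold changes per direction at a mean of at least 0.5 CPM, the 5 highest FPKM and up to 4 genes of smallest p per list. Further members are named so that every tested member has a value. Mmp7, Adamts16, Adam22, Csf3r, Dcn, Col1a1 and the genes naming a library's extremes were picked after their values were seen. Promoters came from the RefSeq table of GRCr8, matched by gene identifier. Coordinates of mRatBN7.2 are not used here. The result of 1 gene of a list is not reported here.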

Additional observations from a re-analysis of the deposited data

How the results depend on the processing

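Over all genes, edgeR called 0 (1731 at an unadjusted p under 0.05), limma-voom 0 and DESeq2 280. Leaving out a library gave 0 to 18 calls, with 18 when Quik-clot replicate 2 was out and 10 when AKOC replicate 1 was, but none of a member. DESeq2 called 1 member, Adamts9, and no other alternative called any. The enzymes at an unadjusted p under 0.05 numbered 3 to 6 under the alternatives, but were not the same genes: of the 16 alternatives, Adamts9 was under it in 16, Adamts7 in 15 (not without Quik-clot replicate 1), Mmp12 in 11 and Adamts12 in 8. Leaving out 1 library moved the log2 fold change by over 1.5 times or turned it in 35 of 39 members, not in Adamts7, Adamts9, Adamts12 or Mmp12. These are the enzymes with an unadjusted p under 0.05 in the same libraries. A fold change that is large beside the spread between libraries favours both outcomes, so their steadiness is no independent support. The Timp genes at that p were 2 with library totals only and with limma-trend at either pseudocount, and 1 or 2 when a library was left out (2 without Quik-clot replicate 1). Samples that share a replicate number did not deviate together (correlations of -0.0719, -0.0822 and -0.201 for numbers 1, 2 and 3). With the replicate number as a block, 1 gene was called, 4 enzymes and 1 Timp gene had an unadjusted p under 0.05, and no member was called. Signs turned without AKOC replicate 2 for Adam12 (-0.0713) and Adamts4 (-0.15), without Quik-clot replicate 2 for Adamts4 (-0.14), and without Quik-clot replicate 3 for Adam9 (0.0453), Mmp14 (0.0755) and Mmp8 (0.49). Timp2 turned with library totals only (-0.00134), limma-trend at pseudocounts 1 and 0.1 (-0.0241 and -0.0303), and without AKOC replicate 1 (-0.19) or Quik-clot replicate 1 (-0.12). When a library was left out, log2 fold changes ran from -0.0713 to 0.63 for Adam12, from -0.20 to 0.0453 for Adam9, from -0.15 to 1.31 for Adamts4, from -0.37 to 0.0755 for Mmp14, from -2.10 to 0.49 for Mmp8 and from -0.19 to 0.24 for Timp2. The cause was not tested. The difference in the Mmp to Timp ratio, AKOC minus Quik-clot, was 0.712, between 0.430 and 0.945 when a library was left out and 0.651 from CPM. Genes under about 1 CPM rest on few counts, which limits what their fold changes can show.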
